A study of Mus musculus with 8 samples.

Results

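Fatty acid oxidation in mitochondria and peroxisomes was followed through 39 genes, found as rows of the count table by gene symbol. Of these, 22 act in mitochondria and 17 in peroxisomes. The table holds 55304 genes, and 17440 of them, all 39 members included, had enough counts to be tested. Some products are also found elsewhere in the cell, so 8 of the 39 (Ech1, Eci2, Crat, Acsl1, Slc27a2, Acot12, Amacr and Scp2) are placed in 1 compartment only by convention.

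Fatty acids are first activated to acyl-CoA esters, and long chains then enter mitochondria as carnitine esters. There each round of beta-oxidation shortens the chain through a dehydrogenase, a hydratase, a hydroxyacyl dehydrogenase and a thiolase, and electrons pass by way of electron transfer flavoprotein to the respiratory chain. Peroxisomes shorten very long and branched chains with their own set of enzymes, which are imported by proteins called peroxins. In the kidney the proximal tubule relies heavily on fatty acids as fuel, and its cells are rich in both organelles.

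RNA was measured in mouse kidney cells labelled as positive for the DBA lectin of Dolichos biflorus, by which collecting duct cells are enriched, from 4 groups of 2 libraries. They were ADPKD mice (modelling dominant polycystic kidney disease) given 666-15, ADPKD mice given vehicle, wild-type (WT) mice given 666-15, and WT mice given vehicle. 666-15, an inhibitor of the transcription factor CREB, was dosed at 5 mg/kg once a day for 5 days with 2 days off, starting at postnatal day 11 and going on for 3 weeks; vehicle was DMSO. The labels name neither the altered gene of the ADPKD mice nor the animal behind each library. The 2 libraries of inhibitor-treated WT cells differed in sex, so they did not come from the same animal. In the other groups the spread between libraries may be technical.

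Total counts per library ranged from 15108793 to 19702638. The libraries did not look like collecting duct alone: 25 proximal tubule markers summed to 369 and 437 counts normalised to library size (CPM) in vehicle-treated ADPKD libraries and to 22008 and 19088 CPM in vehicle-treated WT libraries. The sum of 14 principal cell markers was 2937 and 2323 CPM in vehicle-treated ADPKD libraries and 1658 and 2166 CPM in vehicle-treated WT libraries. Replicate 2 of inhibitor-treated WT cells stood apart by sex, with 17688 counts of Xist and 0 of the Y-linked gene Ddx3y, against at most 8 counts of Xist and at least 1776 of Ddx3y in the other libraries.

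The plot of the members' levels shows every value. Per kilobase of transcript, the highest mitochondrial members in vehicle-treated ADPKD cells were Acadl at 52.6 ± 3.29 CPM per kb (SD, n = 2), Ech1 at 36.5 ± 0.37 and Etfa at 35.1 ± 2.65, and Acsm2 was at 0.267 ± 0.036. In vehicle-treated WT cells the order per kilobase was Acsm2 at 170 ± 11.3 CPM per kb, Ech1 at 156 ± 11.3, Acaa2 at 155 ± 8.92 and Etfa at 152 ± 4.73. The length used is that of the longest annotated transcript, 6738 bases for Acsm2, 1267 for Ech1 and 1516 for Acaa2. The order of these genes depends on that choice. Ech1 and Etfa overlapped within their SDs in both groups, and so did Acsm2 with Ech1 and with Acaa2 in WT cells. Among peroxisomal members Pex5 at 35.6 ± 1.63 and Phyh at 33.7 ± 2.78 CPM per kb came first in vehicle-treated ADPKD cells and overlapped within their SDs. In vehicle-treated WT cells Slc27a2 led at 412 ± 126 CPM per kb, followed by Phyh at 155 ± 6.02 and Scp2 at 113 ± 7.17.

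**Figure D1:**
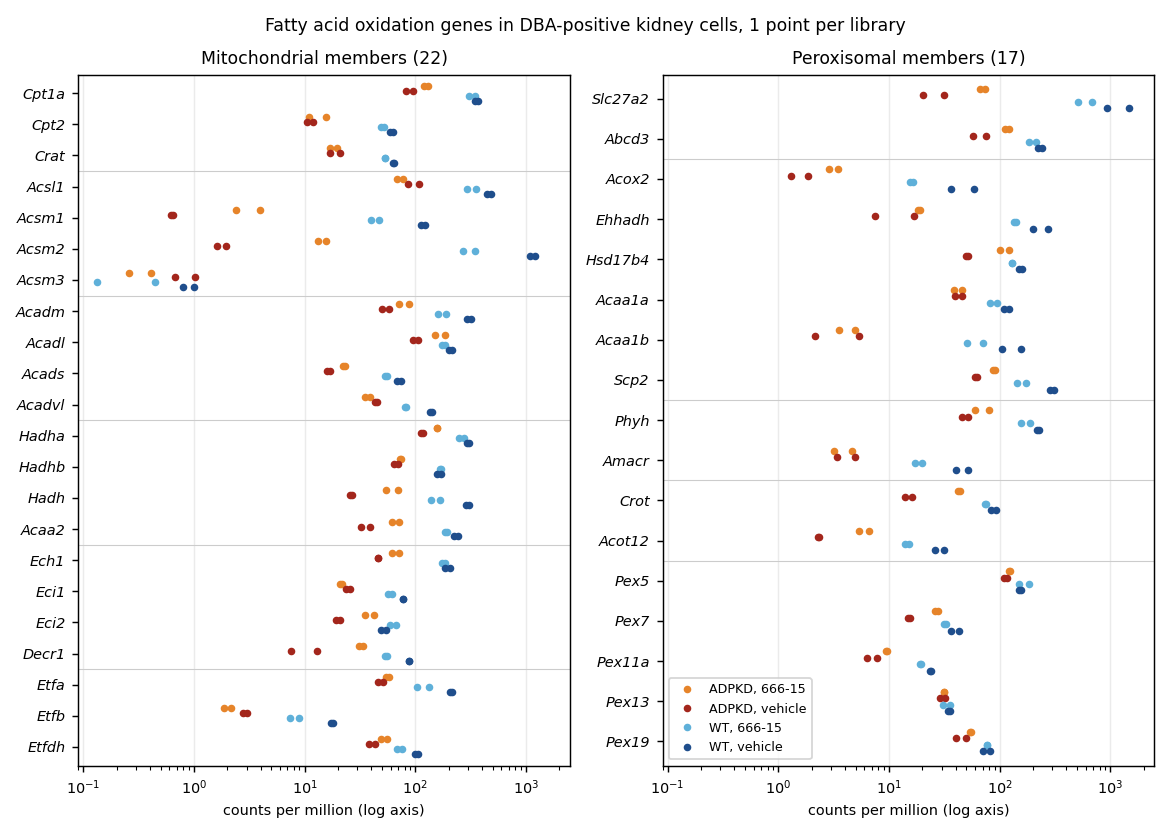
Levels in CPM (log axis) of the 22 mitochondrial and 17 peroxisomal members, with 1 point per library, 4 rows of points per gene for the 4 groups and grey lines between roles. Vehicle-treated ADPKD libraries lie to the left of vehicle-treated WT libraries for nearly every gene, most of all for Acsm2 and Acsm1, and Acsm3 is the member whose points mix between these groups.

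Between genotypes on vehicle, fatty acid oxidation genes were lower in ADPKD cells almost without exception. Of 22 mitochondrial members 21 fell and none rose (edgeR quasi-likelihood test, adjusted p below 0.05), and of 17 peroxisomal members 16 fell and none rose, in a comparison where 27.6% of all 17440 genes fell, 28.8% rose and 56.4% changed either way. The median log2 fold change was -2.10 over mitochondrial and -2.20 over peroxisomal members, against 0.05 over all genes tested. The uncalled members were Acsm3, a medium-chain acyl-CoA synthetase gene with at most 1.03 CPM in any library, and Pex13. All 25 proximal tubule markers were lower in the same comparison, with a median log2 fold change of -7.09, and among the markers listed first Slc34a1 had 4.46 and 3.91 CPM in ADPKD against 3501 and 3967 CPM in WT libraries. Slc5a2 was at 0 and 0.271 CPM in ADPKD against 573 and 642 CPM in WT libraries. Of 10 thick ascending limb markers 9 were lower and none higher (median -3.47). Of 9 distal convoluted and connecting tubule markers 7 were lower and 1 higher (median -2.91). Intercalated cell markers were lower for 10 of 13 and higher for 1 (median -2.06). Podocyte markers were lower for 8 of 10 and higher for 2 (median -1.71). Macrophage markers were higher for 9 of 12 and lower for 1 (median 3.09). Stromal markers were higher for 7 of 10 and lower for 1 (median 1.77). Principal cell markers were higher for 8 of 13 tested and lower for 1 (median 0.59). Endothelial markers were higher for 1 of 11 and lower for 2 (median -0.17). In bulk RNA fewer cells of a type and less RNA per cell cannot be told apart, and the part that any of these cell types has in the members' values was not tested.

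Activation and carnitine entry covered the widest range among mitochondrial members. Acsm2, which activates medium-chain fatty acids, had 1.97 and 1.63 CPM in vehicle-treated ADPKD libraries, against 1093 and 1201 CPM in vehicle-treated WT libraries (log2 fold change -9.31 ± 0.19 SE, edgeR adjusted p = 4.17e-12). Acsm2 lies at chr7:119554340-119600690 (GRCm38, plus strand). Its neighbour Acsm1, which encodes a related synthetase, had 0.623 and 0.651 CPM in ADPKD against 122 and 113 CPM in WT libraries (-7.51 ± 0.24, edgeR adjusted p = 7.94e-11). No other mitochondrial member fell as far: Acsl1, the main long-chain synthetase gene of oxidative tissues, had 108 and 86.5 CPM in ADPKD against 448 and 486 CPM in WT libraries (-2.26 ± 0.13, edgeR adjusted p = 2.14e-08). Cpt1a, the gatekeeper of carnitine-dependent entry, had 81.9 and 94.6 CPM in ADPKD against 370 and 344 CPM in WT libraries (-2.02 ± 0.11, edgeR adjusted p = 7.3e-09). The inner-membrane partner Cpt2 and the acetyl-carnitine enzyme gene Crat fell by 2.43 and 1.76 on the log2 scale. In each of these 6 genes the lowest WT library was above the highest ADPKD library. Acsm1 overlaps the antisense gene Gm19950 by 35789 bases on the other strand.

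The 4 acyl-CoA dehydrogenase genes, which carry out the first step of each round, fell by 1.05 (Acadl, long chain), 1.65 (Acadvl, very long chain), 2.10 (Acads, short chain) and 2.51 (Acadm, medium chain) on the log2 scale. Acadm had 57.9 and 49.8 CPM in ADPKD against 320 and 295 CPM in WT libraries, and Acadl 96.4 and 105 CPM in ADPKD against 217 and 200 CPM in WT libraries. The groups did not overlap for either gene, and Acadl kept the larger share of its WT level. Of the later steps, Hadh, the short-chain hydroxyacyl-CoA dehydrogenase gene, had 26.7 and 25.9 CPM in ADPKD against 305 and 286 CPM in WT libraries (-3.49 ± 0.14, edgeR adjusted p = 5.07e-10), and the thiolase gene Acaa2 fell by 2.72. The reductase gene Decr1 and the isomerase genes Ech1, Eci1 and Eci2, needed for unsaturated fatty acids, fell by 3.11, 2.10, 1.64 and 1.37. The electron transfer genes Etfa, Etfb and Etfdh fell by 2.11, 2.61 and 1.34. Etfb shares 13673 bases on the same strand with the gene model Gm45233, and how reads that fit both were counted is not given in the sources used here; it had at most 17.9 CPM in any library. Acadvl overlaps Dvl2 by 2119 bases on the other strand.

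Hadha and Hadhb encode the alpha and beta subunits of mitochondrial trifunctional protein, which joins the last 3 steps for long chains, and they moved by nearly the same amount. Hadha had 117 and 113 CPM in ADPKD against 293 and 303 CPM in WT libraries (-1.38 ± 0.09, edgeR adjusted p = 6.99e-08), and Hadhb had 70 and 64 CPM in ADPKD against 170 and 157 CPM in WT libraries (-1.28 ± 0.10, edgeR adjusted p = 1.84e-07). The genes lie head to head on chromosome 5, and the 85 bases that separate them in GENCODE M21 are shown because the genes begin on either side of it; the letters come from the RefSeq promoter table (GRCm38, chr5:30155163-30155247, plus strand), and capitals mark the GC box GGGCGG.
Hadha-Hadhb interval: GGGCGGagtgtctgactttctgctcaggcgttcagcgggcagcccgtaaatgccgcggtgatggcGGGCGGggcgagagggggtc
The transcripts differ in base composition, with 51.3% GC in the longest Hadha and 39.1% in the longest Hadhb transcript, which is taken up beside the inhibitor's values for these genes.

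Without the 5 peroxin genes, all 12 peroxisomal members fell in ADPKD cells on vehicle, with a median log2 fold change of -3.00 and levels between 2.16% and 36.9% of vehicle-treated WT cells. Slc27a2 (chr2:126552407-126588243, GRCm38, plus strand), which activates very long chains at the peroxisome and endoplasmic reticulum, had 20.4 and 31.4 CPM in ADPKD against 1463 and 941 CPM in WT libraries (-5.54 ± 0.34, edgeR adjusted p = 1.9e-05). Abcd3, an acyl-CoA transporter of the peroxisomal membrane, had 57.6 and 75.1 CPM in ADPKD against 241 and 222 CPM in WT libraries (-1.80 ± 0.13, edgeR adjusted p = 1.43e-07). The groups stayed apart although the 2 WT libraries differed more than 1.5-fold in Slc27a2, Acox2 and Acaa1b, with replicate 1 higher each time.

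Within the beta-oxidation spiral, Acox2, the oxidase gene for branched chains and bile acid side chains, had 1.87 and 1.3 CPM in ADPKD against 59.2 and 36.1 CPM in WT libraries (-4.90 ± 0.28, edgeR adjusted p = 2.22e-08). The 2 multifunctional enzymes of the next steps fell unequally: Ehhadh had 7.52 and 16.9 CPM in ADPKD against 276 and 199 CPM in WT libraries (-4.28 ± 0.38, edgeR adjusted p = 0.000137), and Hsd17b4 had 49.9 and 51.6 CPM in ADPKD against 158 and 150 CPM in WT libraries (-1.60 ± 0.11, edgeR adjusted p = 6.22e-08). Neither gene's groups overlapped. The peroxisomal racemase gene Amacr and the phytanic acid hydroxylase gene Phyh fell by 3.46 and 2.20. Crot, which makes carnitine esters for export to mitochondria, and the acyl-CoA thioesterase gene Acot12 fell by 2.54 and 3.64, and Scp2, which encodes a sterol carrier and thiolase, fell by 2.30. Scp2 shares 52607 bases on the same strand with the gene Podn in GENCODE M21, and for Scp2 too the sources used here do not give how reads that fit both were counted.

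The 2 copies of the straight-chain peroxisomal thiolase moved by different amounts. Acaa1b had 2.13 and 5.37 CPM in ADPKD against 157 and 104 CPM in WT libraries (-5.13 ± 0.46, edgeR adjusted p = 0.000133), and Acaa1a had 45.4 and 39.8 CPM in ADPKD against 121 and 110 CPM in WT libraries (-1.44 ± 0.12, edgeR adjusted p = 5.49e-07). Both genes were lower in every ADPKD library. Their coding sequences are 96.5% identical, with 44 differences in 1272 bases and a stretch of 327 bases with none, and the handling of reads that fit more than 1 place is not given in the sources used here, so the split between them is uncertain. Acaa1a also overlaps Slc22a14 and Myd88 on the other strand. A piece of coding exon 8 shows how little separates the copies; it was read from GENCODE M21 transcripts (GRCm38), with 3 differing bases in capitals, Acaa1a at chr9:119348631-119348720 on the plus strand and Acaa1b at chr9:119149651-119149740 on the minus strand.
Acaa1a: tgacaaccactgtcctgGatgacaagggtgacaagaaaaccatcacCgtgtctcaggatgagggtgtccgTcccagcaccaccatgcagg
Acaa1b: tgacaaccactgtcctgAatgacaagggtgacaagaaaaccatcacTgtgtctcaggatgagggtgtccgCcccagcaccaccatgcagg

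Of the 5 peroxin genes 4 fell in ADPKD cells on vehicle, with a median log2 fold change of -0.77. Pex11a, which acts in peroxisome division, had 6.33 and 7.76 CPM in ADPKD against 23.9 and 23.6 CPM in WT libraries (-1.75 ± 0.17, edgeR adjusted p = 2.03e-06), and Pex7, the import receptor for the N-terminal targeting signal, fell by 1.40. Pex19, the chaperone of peroxisomal membrane proteins, and Pex5, the import receptor for the C-terminal targeting signal, fell by 0.77 and 0.44. Pex13, part of the docking complex in the peroxisomal membrane, had 28.7 and 32.3 CPM in ADPKD against 33.9 and 35.5 CPM in WT libraries (-0.19 ± 0.13, edgeR adjusted p = 0.241). The 8 libraries ranged from 28.7 to 35.5 CPM for this gene. Pex13 is also the only 1 of 33 members with a promoter in the RefSeq table that holds the palindromic cAMP response element TGACGTCA, the site bound by CREB, on either strand; 1.79% of all 32851 promoters hold it. The element begins 83 bases before the start used in that table (GRCm38, chr11:23665929-23665996, minus strand), and the piece around it is printed with the element in capitals because it is the members' only full match to the site of the inhibitor's target.
Pex13 promoter: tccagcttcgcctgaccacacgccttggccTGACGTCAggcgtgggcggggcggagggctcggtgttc
In GENCODE M21 Pex13 starts further upstream, at chr11:23665959, which is the last base of the element. The gene also overlaps Pus10 by 286 bases on the other strand. A match of letters does not show binding.

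The sums of the 2 classes were both lower in ADPKD cells on vehicle. Mitochondrial members summed to 876 and 868 CPM in vehicle-treated ADPKD libraries, against 4638 and 4720 CPM in vehicle-treated WT libraries, and peroxisomal members to 531 and 556 CPM in ADPKD against 3523 and 2735 CPM in WT libraries. The log2 ratio of the mitochondrial to the peroxisomal sum was 0.72 and 0.64 in ADPKD and 0.40 and 0.79 in WT libraries on vehicle, which overlap. The WT sums leaned on 1 gene each. Acsm2 held 0.225% and 0.188% of the mitochondrial sum in vehicle-treated ADPKD libraries and 23.6% and 25.4% in vehicle-treated WT libraries. Slc27a2 held 3.84% and 5.65% of the peroxisomal sum in ADPKD and 41.5% and 34.4% in WT libraries. With both genes left out, a choice made after the data had been seen, the log2 ratio was 0.78 and 0.72 in ADPKD and 0.78 and 0.97 in WT libraries.

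**Figure D2:**
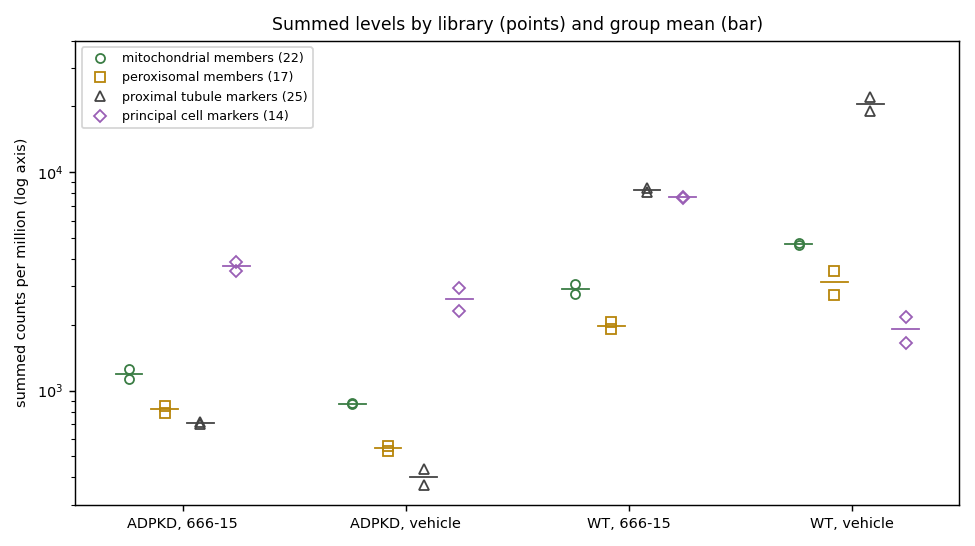
Summed levels in CPM (log axis) of the mitochondrial members, the peroxisomal members, proximal tubule markers and principal cell markers, with 1 open point per library and a bar at each group's mean. Both member sums follow the order of the proximal tubule sum, lowest in vehicle-treated ADPKD cells and highest in vehicle-treated WT cells, while the principal cell sum is highest in inhibitor-treated WT cells.

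Treatment with the inhibitor raised part of the members in ADPKD cells. Of 22 mitochondrial members 13 rose and 1 (Acsl1) fell, and of 17 peroxisomal members 9 rose and none fell, where 22.3% of all genes rose, 19.1% fell and 41.4% changed either way. The median log2 fold change was 0.46 over mitochondrial and 0.54 over peroxisomal members, against 0.02 over all genes tested. Of 25 proximal tubule markers 15 rose and 4 fell (median 1.47), and their sum was 700 and 715 CPM with the inhibitor, against 369 and 437 CPM with vehicle. Of 13 intercalated cell markers 8 rose and none fell (median 1.52), of 9 distal convoluted and connecting tubule markers 5 rose and 2 fell (median 1.19), and of 13 principal cell markers tested 6 rose and 1 fell (median 0.38). All 11 endothelial markers fell (median -1.78), as did 4 of 10 podocyte and 4 of 10 stromal markers. The part of these markers in the members' rise was not tested.

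The largest rises among mitochondrial members were those of the medium-chain synthetase genes Acsm2 and Acsm1. Acsm2 had 13.1 and 15.6 CPM in inhibitor-treated ADPKD libraries, against 1.97 and 1.63 CPM in vehicle-treated ones (2.99 ± 0.19, edgeR adjusted p = 5.55e-07), and Acsm1 had 3.97 and 2.38 CPM with the inhibitor against 0.623 and 0.651 CPM with vehicle (2.31 ± 0.30, edgeR adjusted p = 8.02e-05). Every treated library was above both vehicle libraries, yet Acsm2 came to 1.25% of its level in vehicle-treated WT cells. Decr1 had 31.2 and 33.4 CPM with the inhibitor against 7.52 and 12.9 CPM with vehicle (1.66 ± 0.20, edgeR adjusted p = 5.99e-05). Hadh had 54.5 and 69.6 CPM with the inhibitor against 26.7 and 25.9 CPM with vehicle (1.24 ± 0.13, edgeR adjusted p = 1.93e-05). Eci2, Acaa2, Acadl, Ech1, Cpt1a and Hadha rose by 0.94, 0.89, 0.75, 0.53, 0.51 and 0.46 on the log2 scale, all without overlap between the groups.

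Acadm, Acads and Etfdh rose by 0.56, 0.46 and 0.37 on the log2 scale, but each call was lost without certain libraries. Etfdh came to 0.04 once the GC trend of each library was removed (edgeR adjusted p = 0.823). Without replicate 2 of inhibitor-treated ADPKD cells Acadm went to 0.41 (edgeR adjusted p = 0.06) and Etfdh to 0.29 (edgeR adjusted p = 0.179). Etfdh was also lost without replicate 1 of vehicle-treated ADPKD cells (0.28, edgeR adjusted p = 0.153), and Acads without replicate 1 of inhibitor-treated ADPKD cells (0.45, edgeR adjusted p = 0.0547). Acsl1 had 68.2 and 78.3 CPM with the inhibitor against 108 and 86.5 CPM with vehicle (-0.41 ± 0.13, edgeR adjusted p = 0.0234), a call lost without replicate 1 of inhibitor-treated (-0.30, edgeR adjusted p = 0.201) or of vehicle-treated ADPKD cells (-0.24, edgeR adjusted p = 0.232). Hadhb had 73.4 and 74.9 CPM with the inhibitor against 70 and 64 CPM with vehicle (0.15 ± 0.10, edgeR adjusted p = 0.254) beside the rise of its partner Hadha to 157 and 158 CPM, against 117 and 113 CPM with vehicle. With the GC trend of each library removed, Hadhb turned to -0.32 (edgeR adjusted p = 0.0226). The remaining uncalled mitochondrial members were Cpt2, Crat, Acsm3, Acadvl, Eci1, Etfa and Etfb. Acsm3 had 0.26 and 0.407 CPM with the inhibitor against 0.674 and 1.03 CPM with vehicle (-1.34 ± 0.74, edgeR adjusted p = 0.166).

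Among peroxisomal members the genes of entry and exit rose together in ADPKD cells. Crot had 42.1 and 43.9 CPM with the inhibitor against 16.2 and 14 CPM with vehicle (1.51 ± 0.12, edgeR adjusted p = 2.98e-06), and Acot12 had 5.4 and 6.58 CPM with the inhibitor against 2.28 and 2.33 CPM with vehicle (1.37 ± 0.22, edgeR adjusted p = 0.00041). Abcd3 had 112 and 122 CPM with the inhibitor against 57.6 and 75.1 CPM with vehicle (0.82 ± 0.13, edgeR adjusted p = 0.000338). All 3 genes were higher in both treated libraries than in either vehicle library. Hsd17b4 had 101 and 122 CPM with the inhibitor against 49.9 and 51.6 CPM with vehicle (1.14 ± 0.11, edgeR adjusted p = 8.64e-06), while Ehhadh, the other multifunctional enzyme gene, had 18.4 and 19.2 CPM with the inhibitor against 7.52 and 16.9 CPM with vehicle (0.62 ± 0.37, edgeR adjusted p = 0.234). Without replicate 2 of vehicle-treated ADPKD cells Ehhadh was at 1.34 (edgeR adjusted p = 0.000483). The import receptor gene Pex7 had 28 and 26.1 CPM with the inhibitor against 14.7 and 15.4 CPM with vehicle (0.85 ± 0.14, edgeR adjusted p = 0.000428) and was the only peroxin gene called in the model as fitted. With the GC trend removed, Pex5 was called higher (0.35, edgeR adjusted p = 0.0106; 0.13 as fitted) and Pex13 lower (-0.43, edgeR adjusted p = 0.0123; 0.04 as fitted).

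Scp2 rose by 0.54 on the log2 scale, and by 0.25 with the GC trend removed (edgeR adjusted p = 0.0592). Slc27a2 had 66.4 and 73.6 CPM with the inhibitor against 20.4 and 31.4 CPM with vehicle (1.43 ± 0.30, edgeR adjusted p = 0.0107), lost without replicate 2 of inhibitor-treated ADPKD cells (1.37, edgeR adjusted p = 0.0584). Phyh, at 0.53 ± 0.14, was lost without the same library (0.33, edgeR adjusted p = 0.134) and without replicate 1 of vehicle-treated ADPKD cells (0.45, edgeR adjusted p = 0.0699). Removing the GC trend also ended that call (0.28, edgeR adjusted p = 0.0995). Acox2, at 0.99 ± 0.32 with at most 3.46 CPM in an ADPKD library, was lost without replicate 1 (1.14, edgeR adjusted p = 0.0569) or 2 (0.86, edgeR adjusted p = 0.15) of inhibitor-treated or replicate 2 of vehicle-treated ADPKD cells (0.77, edgeR adjusted p = 0.142). The thiolase copies Acaa1a and Acaa1b, the racemase gene Amacr and the other 4 peroxin genes did not pass the test.

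**Figure D3:**
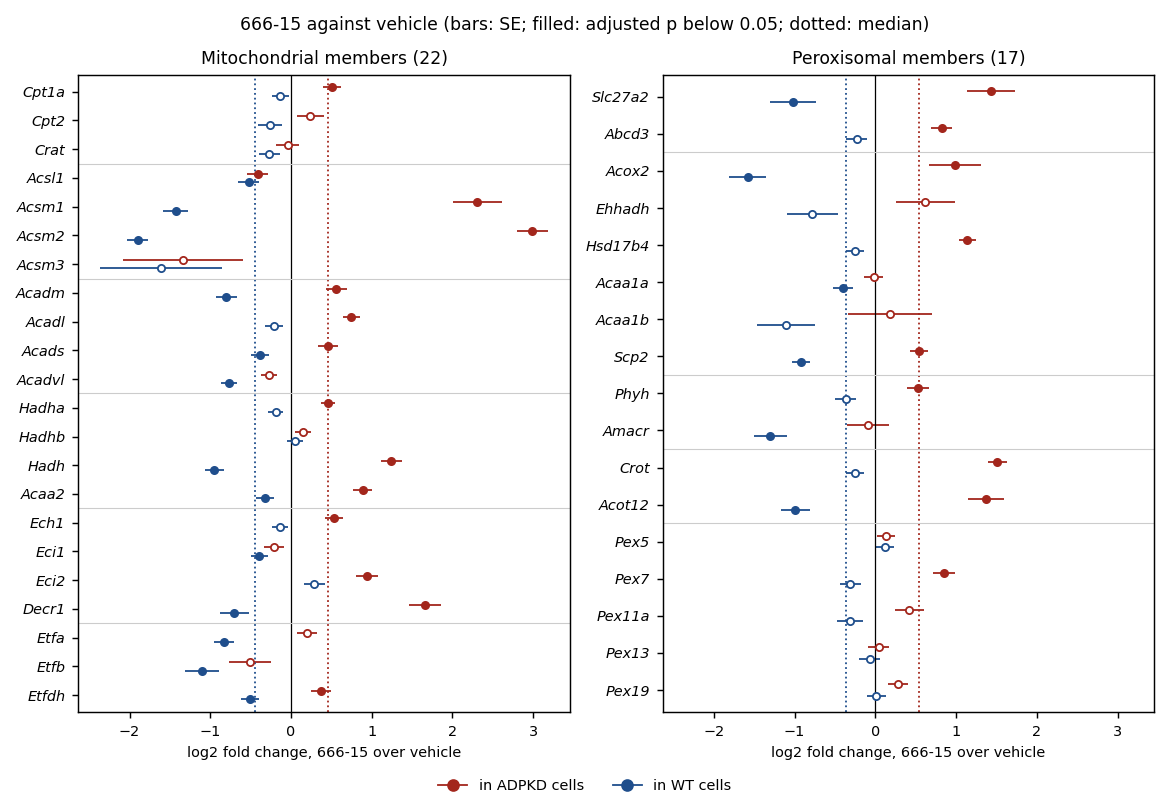
Log2 fold change of the inhibitor over vehicle in ADPKD cells (red) and in WT cells (blue) for each member, with SE bars, filled points for adjusted p below 0.05 and dotted lines at the class medians. The medians are 0.46 and -0.45 over mitochondrial and 0.54 and -0.37 over peroxisomal members in ADPKD and WT cells, and the Acsm1 and Acsm2 points lie farthest apart.

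In WT cells the inhibitor lowered part of the members and raised none. Of 22 mitochondrial members 13 fell and none rose, and of 17 peroxisomal members 6 fell and none rose, where 11.6% of all genes fell, 13.9% rose and 25.5% changed either way. Without the 8 members of uncertain compartment 12 of 18 mitochondrial and 2 of 13 peroxisomal members fell, and the peroxisomal share is then near that of all genes. The median log2 fold change was -0.45 over mitochondrial and -0.37 over peroxisomal members, against -0.01 over all genes tested. The marker lists moved too: 19 of 25 proximal tubule markers (median -1.24) and 7 of 10 thick ascending limb markers (median -0.73) fell, and 12 of 13 principal cell (median 2.10), 8 of 13 intercalated cell (median 0.98) and 7 of 12 macrophage markers (median 1.68) rose. The proximal tubule sum was 8100 and 8493 CPM with the inhibitor against 22008 and 19088 CPM with vehicle, and the part of these markers in the members' fall was not tested. The mitochondrial count was 7 without replicate 2 of vehicle-treated WT cells. Without the library that differed in sex it was 9, and the peroxisomal count was 5.

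Calls that held whichever library was left out included those of the medium-chain synthetase genes Acsm2 and Acsm1. Acsm2 had 272 and 344 CPM in inhibitor-treated WT libraries, against 1093 and 1201 CPM in vehicle-treated ones (-1.90 ± 0.13, edgeR adjusted p = 7.75e-07), and Acsm1 had 40.2 and 47.2 CPM with the inhibitor against 122 and 113 CPM with vehicle (-1.43 ± 0.16, edgeR adjusted p = 2.78e-05). Hadh had 139 and 166 CPM with the inhibitor against 305 and 286 CPM with vehicle (-0.95 ± 0.12, edgeR adjusted p = 0.000113). Treated and vehicle libraries were fully apart in these 3 genes. Acadm, Acadvl and the electron transfer flavoprotein genes Etfa and Etfb fell by 0.80, 0.77, 0.83 and 1.10 on the log2 scale. Among peroxisomal members Scp2 had 144 and 172 CPM with the inhibitor against 312 and 285 CPM with vehicle (-0.92 ± 0.11, edgeR adjusted p = 4.54e-05), and Acox2 had 16.6 and 15.4 CPM with the inhibitor against 59.2 and 36.1 CPM with vehicle (-1.58 ± 0.23, edgeR adjusted p = 0.000265). Amacr and Acot12 fell by 1.30 and 0.99, again without overlap.

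The other called members in WT cells (Acsl1, Acads, Acaa2, Eci1, Decr1, Etfdh, Slc27a2 and Acaa1a) each lost the call when some library was left out, with log2 fold changes between -0.32 and -1.02 when all were kept. Without replicate 2 of vehicle-treated WT cells Acsl1, Acads, Acaa2, Eci1, Decr1, Etfdh and Acaa1a had edgeR adjusted p of 0.0623, 0.2, 0.269, 0.106, 0.0629, 0.0544 and 0.0635. Without replicate 1 of vehicle-treated WT cells the adjusted p by edgeR was 0.0959 for Acads, 0.113 for Acaa2, 0.139 for Eci1, 0.0678 for Decr1, 0.142 for Slc27a2 and 0.213 for Acaa1a. Without replicate 2 of inhibitor-treated WT cells it was 0.0887 for Acads, 0.064 for Acaa2, 0.0938 for Eci1, 0.0713 for Decr1, 0.249 for Slc27a2 and 0.141 for Acaa1a. Without replicate 1 of the same group it was 0.123 for Acaa2, 0.0515 for Decr1 and 0.121 for Slc27a2. Leaving out replicate 1 or 2 of inhibitor-treated ADPKD cells, which only share the estimate of the spread, ended the calls of Acaa2 (edgeR adjusted p = 0.0678 and 0.0681) and Slc27a2 (edgeR adjusted p = 0.0843 and 0.0836). Cpt1a, Hadha, Hadhb, Ech1, Abcd3, Hsd17b4, Crot and all 5 peroxin genes were among the 20 members not called in the model as fitted. Pex5 had 184 and 148 CPM with the inhibitor and 150 and 155 CPM with vehicle, and Eci2 67.3 and 59.5 CPM with the inhibitor and 54.9 and 48.9 CPM with vehicle (0.29 ± 0.13, edgeR adjusted p = 0.131).

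The difference between the genotypes in the response to the inhibitor was tested by the interaction of genotype and treatment. It was positive, meaning a log2 fold change higher in ADPKD than in WT cells, for 15 of 22 mitochondrial and 11 of 17 peroxisomal members and negative for none, where 13.6% of all genes had a positive and 13% a negative call, 26.6% together. Its median was 0.67 over mitochondrial and 1.21 over peroxisomal members, against -0.02 over all genes tested. Without the 8 members of uncertain compartment the medians were closer, at 0.86 and 1.05. Acsm2 had the highest value, 4.89 ± 0.22 (edgeR adjusted p = 2.06e-07), with log2 fold changes of 2.99 in ADPKD and -1.90 in WT cells. Acsm1 followed at 3.74 ± 0.34 (edgeR adjusted p = 1.37e-05), then Acox2 at 2.57 ± 0.39 (edgeR adjusted p = 0.00058), whose call in ADPKD cells was lost without certain single libraries. Hadh, Scp2 and Acot12 were called higher in ADPKD and lower in WT cells and had interactions of 2.19, 1.46 and 2.36. Crot, Hsd17b4, Abcd3, Pex7, Acadl, Hadha, Ech1 and Cpt1a rose in ADPKD cells, did not pass the test in WT cells as fitted, and had interactions of 1.76, 1.39, 1.05, 1.16, 0.96, 0.64, 0.68 and 0.64. With a filter of 5 CPM in 2 libraries, some of them were called lower in WT cells. These were Crot (-0.35), Hsd17b4 (-0.36), Pex7 (-0.42), Acadl (-0.32) and Hadha (-0.29), with edgeR adjusted p of 0.0283, 0.0193, 0.0292, 0.0472 and 0.0317. Crat, Acsl1, Hadhb, Eci1, Acaa1a, Pex5, Pex13 and Pex19 had no interaction call, with values between 0.00 and 0.37, and Cpt2, Acsm3, Etfb and Acaa1b none with values of 0.50, 0.27, 0.59 and 1.29. Ehhadh, at 1.41 ± 0.49 (edgeR adjusted p = 0.0887), passed without replicate 1 (0.94, edgeR adjusted p = 0.0137) or replicate 2 (2.13, edgeR adjusted p = 0.000109) of vehicle-treated ADPKD cells, and Acaa1b without replicate 2 (2.12, edgeR adjusted p = 0.0323), the libraries in which these genes differed over 1.5-fold. Acaa1a gained an interaction call once the GC trend was removed (0.61, edgeR adjusted p = 0.0143; 0.37 as fitted). Of 25 proximal tubule markers 17 had a positive and none a negative interaction (median 2.95), as had 7 of 10 thick ascending limb markers (median 1.27). Negative interactions were called for 8 of 13 principal cell (median -1.49), 8 of 11 endothelial (median -1.43) and 6 of 12 macrophage markers (median -1.69). In these lists 1 principal cell and 1 macrophage marker had a positive call.

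With both genotypes on the inhibitor, the members stayed lower in ADPKD cells. Of 22 mitochondrial members 20 fell and none rose, and of 17 peroxisomal members 14 fell and none rose, where 24.5% of all genes were lower, 21.8% higher and 46.3% differed either way. The medians were -1.28 over mitochondrial and -1.02 over peroxisomal members, against -0.03 over all genes. All 25 proximal tubule markers were lower as well (median -3.90), and so were all 10 podocyte markers (median -2.47), 10 of 11 endothelial (median -1.87), 11 of 13 intercalated cell (median -1.58), 9 of 10 thick ascending limb (median -2.23) and 8 of 13 principal cell markers tested (median -0.90). Of 9 distal convoluted and connecting tubule markers 6 were lower and 2 higher (median -2.41), and 1 principal cell marker was higher. Macrophage markers were higher for 9 of 12 and lower for 1 (median 1.34). Stromal markers were higher for 6 of 10 and lower for 2 (median 1.72). The part of these markers in the members' values was not tested. Acadl had 152 and 187 CPM in ADPKD and 173 and 186 CPM in WT libraries on the inhibitor (-0.09 ± 0.11, edgeR adjusted p = 0.56), and Hsd17b4 had 101 and 122 CPM in ADPKD and 130 and 129 CPM in WT libraries (-0.21 ± 0.11, edgeR adjusted p = 0.124). Acadl overlapped between the groups, and Pex7, Pex13 and Acsm3 were the other members not called. At the other end Acsm2 had 13.1 and 15.6 CPM in ADPKD against 272 and 344 CPM in WT libraries (-4.42 ± 0.15, edgeR adjusted p = 5.67e-10), and Acaa1b fell by 3.84. The calls of Decr1 (-0.75) and Etfdh (-0.46) were lost without replicate 1 of inhibitor-treated ADPKD cells (-0.70 and -0.37, edgeR adjusted p = 0.0599 and 0.0863). The call of Pex5 (-0.44) was lost after removal of the GC trend (-0.07, edgeR adjusted p = 0.556), where Pex13 was called lower (-0.35, edgeR adjusted p = 0.0286). Counts were the same without the WT library that differed in sex. This comparison and that on vehicle share no library, but each shares libraries with inhibitor comparisons within a genotype.

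**Figure D4:**
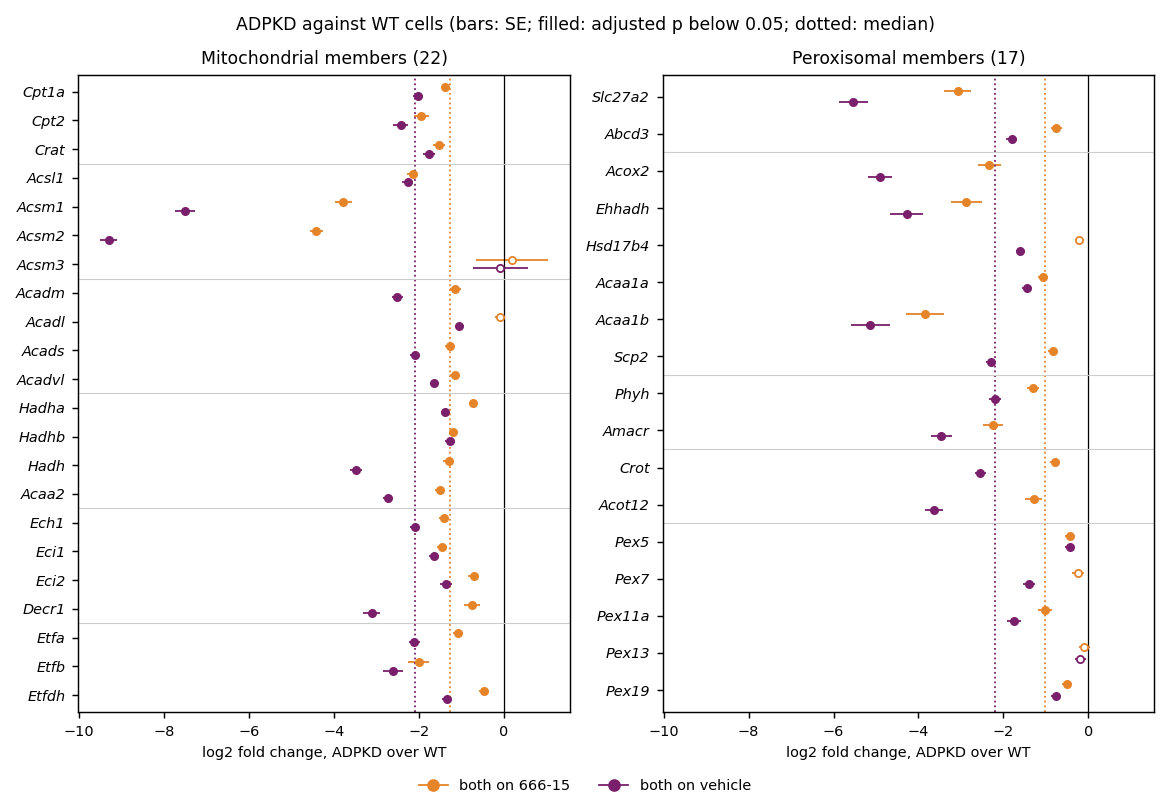
Log2 fold change of ADPKD over WT cells with both on the inhibitor (orange) and with both on vehicle (purple) for each member, with SE bars, filled points for adjusted p below 0.05 and dotted lines at the class medians. The medians are -1.28 on the inhibitor and -2.10 on vehicle over mitochondrial members, and -1.02 and -2.20 over peroxisomal members.

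Related genes outside the members were counted on vehicle too, where 27.6% of all genes were lower and 28.8% higher. Of 21 other mitochondrial fatty acid genes tested 16 were lower and 3 higher in ADPKD cells, of 28 other peroxisomal enzymes and transporters 27 were lower and none higher, and of 12 other peroxins 6 were lower and 1 higher. Cat, the peroxisomal catalase gene, had 44.3 and 46.4 CPM in ADPKD against 562 and 484 CPM in WT libraries (-3.53 ± 0.13, edgeR adjusted p = 2.19e-10). Of 18 genes of fatty acid uptake, binding and storage 10 were lower and 2 higher on vehicle. With the inhibitor in ADPKD cells 13 of the 28 peroxisomal genes rose and 1 fell, and 6 of the 21 mitochondrial genes rose and 3 fell. The other 2 lists leaned the other way. Of the 12 other peroxins 1 rose and 4 fell (median -0.38), and of the 18 uptake, binding and storage genes 2 rose and 9 fell (median -0.32). In that comparison 22.3% of all genes rose and 19.1% fell, and the mitochondrial counts are near these shares. Far1, Gnpat and Agps, which make ether lipids in the peroxisome, rose by 1.18, 1.07 and 0.93. Bdh1, which serves ketone body metabolism, fell by 1.56, and Acat1, the mitochondrial acetoacetyl-CoA thiolase gene, rose by 1.44.

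Genes that regulate fatty acid oxidation did not move as 1 group. Of 24 regulators tested 14 were lower and 2 higher in ADPKD than in WT cells on vehicle. Hnf4a, a proximal tubule transcription factor gene, had 1.82 and 3.15 CPM in ADPKD against 177 and 188 CPM in WT libraries (-6.20 ± 0.22, edgeR adjusted p = 8.69e-10), and Ppara, the fatty acid sensing nuclear receptor gene, had 1.19 and 0.923 CPM in ADPKD against 14.6 and 13.5 CPM in WT libraries (-3.72 ± 0.33, edgeR adjusted p = 8.53e-07). With the inhibitor in ADPKD cells Hnf4a had 6.38 and 5.02 CPM against 1.82 and 3.15 CPM with vehicle (1.20 ± 0.25, edgeR adjusted p = 0.00232), while Ppara had 0.846 and 0.814 CPM against 1.19 and 0.923 CPM with vehicle (-0.35 ± 0.42, edgeR adjusted p = 0.54). Ppargc1a, a coactivator gene of mitochondrial programmes, rose by 0.78 in ADPKD cells and by 0.75 in WT cells with the inhibitor, the second call lost without replicate 1 of vehicle-treated WT cells (0.68, edgeR adjusted p = 0.0554). Esrra, which encodes a nuclear receptor that works with that coactivator, fell by 0.99 in ADPKD cells and by 1.14 in WT cells with the inhibitor, the opposite of the members' median in ADPKD cells and the same direction in WT cells.

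The promoter windows, from 250 bases before to 50 after each start, were available for 33 of the 39 members. None of the 33 held the consensus element bound by PPAR-alpha with its partner receptor, 2 copies of AGGTCA in a row with 1 base between them, on either strand; 0.0396% of all 32851 promoters held it, so no match is the usual case. The GC box GGGCGG, added after the other motifs, was in the windows of 23 of the 33 members and in 35.7% of all promoters. The shares of all promoters, also that for the cAMP response element, count windows and not genes. The 33 members have 39 windows, so a count of members and a share of promoters are not like measures. No match says only that these letters are not in the window.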

How the data were processed

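The deposited table holds raw counts per gene made by the authors, with HISAT2 2.1.0 alignment to mm10, featureCounts 1.6.0 and DESeq2 named per the submitters' processing notes. The annotation release, strandedness and handling of multiply mapped reads are not given in the sources used here, and RNA was selected with oligo-dT per the labels, whose protocol text also mentions whole kidney. Vehicle columns were matched to samples by elimination. Depth was 15108793 to 19702638 counts in total.

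The model was edgeR 4.0.16 in R 4.3.3: filterByExpr (minimum count 10, minimum total 15) left 17440 of 55304 genes, libraries were scaled by TMM, and 1 robust quasi-likelihood model was fitted to the 4 groups over 8 libraries, with 4 residual degrees of freedom and a biological coefficient of variation of 0.138. Tests were two-sided, with Benjamini-Hochberg adjustment over all genes within each of 5 contrasts, at 0.05. CPM are scaled by TMM, values ± SD have n = 2, and the error of a log2 fold change is its SE in the model. The script was tested on simulated data. Members, gene lists and motifs were chosen with earlier results of these data known, so counts are descriptions beside the share of all genes called. All members could be named, of other pathway lists the 4 with the smallest p per contrast and Ppara, Ppargc1a, Esrra and Hnf4a, and of marker lists the first 2 and any at 0; some genes under this rule are not reported here. Replicate numbers did not pair libraries: differences between replicates correlated at -0.0371 to 0.0806 between groups over 11199 genes.

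Positions, lengths and GC content are those of GENCODE M21 for GRCm38, by symbol (53569 of 55304 matched, 96.9%), and promoters are from a RefSeq table for GRCm38. Alternatives were RLE scaling, no filter, a filter of 5 CPM in 2 libraries, no robust option, the replicate block, the compared groups alone, DESeq2 1.42.0, removal of a GC trend per library (lowess, span 0.3), and each library left out. Protein sequences were not analysed here. Plots used matplotlib 3.10.9 (Python 3.11.15).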

Additional observations from a re-analysis of the deposited data

Results flagged for a closer look

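The response to the inhibitor differed between ADPKD and WT cells for 26 of the 39 members, by the interaction term of the edgeR model at an adjusted p below 0.05. Of all 17440 genes tested, 26.6% had such a call, 13.6% positive and 13% negative. Values are the log2 fold change in ADPKD cells minus that in WT cells, and all 26 are positive. Among mitochondrial members they were 4.89 for Acsm2, 3.74 for Acsm1, 2.36 for Decr1, 2.19 for Hadh, 1.37 for Acadm, 1.22 for Acaa2, 1.03 for Etfa, 0.96 for Acadl, 0.88 for Etfdh, 0.84 for Acads, 0.68 for Ech1, 0.66 for Eci2, 0.64 for Cpt1a, 0.64 for Hadha and 0.50 for Acadvl. Among peroxisomal members they were 2.57 for Acox2, 2.46 for Slc27a2, 2.36 for Acot12, 1.76 for Crot, 1.46 for Scp2, 1.39 for Hsd17b4, 1.21 for Amacr, 1.16 for Pex7, 1.05 for Abcd3, 0.90 for Phyh and 0.73 for Pex11a. Some of these calls were lost when 1 library was left out, each time by edgeR. Without replicate 1 of vehicle-treated ADPKD cells the adjusted p was 0.0578 for Eci2 and 0.118 for Pex11a. Without replicate 2 of that group it was 0.058 for Acadvl and 0.0521 for Amacr. Without replicate 2 of inhibitor-treated ADPKD cells it was 0.107 for Acadvl, 0.11 for Eci2, 0.125 for Amacr and 0.0966 for Pex11a. Without replicate 1 of vehicle-treated WT cells it was 0.0677 for Acadvl, 0.0952 for Eci2, 0.0851 for Amacr and 0.126 for Pex11a, and without replicate 2 of that group 0.0924 for Acadvl and 0.113 for Pex11a. Pex11a was also lost without replicate 1 of inhibitor-treated ADPKD cells (0.112) and replicate 1 of inhibitor-treated WT cells (0.0772). The call of Slc27a2 was lost without a filter on low counts (2.49, edgeR adjusted p = 0.0508). With the GC trend removed the calls of Eci2 (0.46, edgeR adjusted p = 0.0849) and Pex11a (0.69, edgeR adjusted p = 0.0517) were lost. The proximal tubule markers moved the same way, 17 of 25 with a positive call, and their part in these differences was not tested.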

How the results depend on the processing

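Of 3075 values of single members under the alternatives, 2917 kept direction and side of the threshold. With the sign kept, 72 lost the call and 40 gained one, and 46 changed sign. A value that changed sign was counted only as such, also where it gained a call. Hadhb and Pex13 did so with the inhibitor in ADPKD cells once the GC trend was removed. On vehicle, ADPKD against WT called 21 mitochondrial and 16 peroxisomal members under every alternative run. For the inhibitor in WT cells the peroxisomal count was 11 with the filter of 5 CPM (6 as reported), and leaving out a library gave 7 to 13 mitochondrial and 4 to 8 peroxisomal members. In ADPKD cells that range was 12 to 14 and 6 to 10. The filter of 5 CPM added mitochondrial calls in WT cells too. These were Crat (-0.37, edgeR adjusted p = 0.049), Acadl (-0.32, edgeR adjusted p = 0.0472) and Hadha (-0.29, edgeR adjusted p = 0.0317). With the replicate block the counts for the inhibitor in WT cells were 13 and 6, with Slc27a2 lost (edgeR adjusted p = 0.0916) and Phyh gained (0.0281), and no other member's call changed. Median log2 fold changes without the 8 members of uncertain compartment were -2.11 for mitochondrial and -1.75 for peroxisomal genes between genotypes on vehicle. With the GC trend removed, sign changed for Acsm3 (0.21) and Pex13 (0.02) on vehicle, for Crat (0.15), Hadhb (-0.32), Etfa (-0.08), Acaa1a (0.21) and Pex13 (-0.43) with the inhibitor in ADPKD cells, and for the interactions of Acsl1 (-0.20), Acsm3 (-0.13), Hadhb (-0.37) and Pex13 (-0.37). The filter of 5 CPM gave Pex13 -0.04 in ADPKD and Hadhb -0.05 and Pex19 -0.10 in WT cells, no filter gave Acaa1a 0.01 in ADPKD cells, and in WT cells DESeq2 and RLE gave Hadhb -0.01 and -0.01 and Pex19 -0.05 and -0.06. Leaving out a library gave ranges across 0 for uncalled members: with the inhibitor in ADPKD cells Cpt2 -0.03 to 0.49, Crat -0.18 to 0.14, Acaa1a -0.12 to 0.10, Acaa1b -0.34 to 1.01, Amacr -0.38 to 0.23 and Pex13 -0.04 to 0.14. With the inhibitor in WT cells these were Hadhb -0.01 to 0.11, Pex5 -0.04 to 0.27, Pex13 -0.17 to 0.02 and Pex19 -0.10 to 0.11. Between genotypes they were Acsm3 -0.43 to 0.19 on vehicle, and on the inhibitor Acsm3 -0.40 to 1.29, Acadl -0.24 to 0.06 and Pex13 -0.18 to 0.02. For the interaction they were Acsl1 -0.02 to 0.29, Acsm3 -0.31 to 1.38 and Pex5 -0.12 to 0.18. The cause of these changes was not tested. With 2 libraries a group and at most 1.03 CPM, Acsm3 could not be followed at this depth. Acsm3 also overlaps Eri2 by 18835 bases on the other strand, and strandedness is not given in the sources used here.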
